A study of Homo sapiens with 6 samples.

Results

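In RSL3-treated U87MG glioblastoma cells, both ferritin subunit mRNAs were more abundant than in vehicle-treated cells, and the mRNAs of the ferritin autophagy receptor NCOA4 and of the endosomal iron reductase STEAP3 were less abundant. FTH1 rose by 22.8% and FTL by 28.1%, while NCOA4 fell by 12.8% and STEAP3 fell by 29.6%. The mRNAs of the iron regulatory proteins (ACO1 and IREB2), of the divalent metal transporter (SLC11A2) and of the iron chaperone PCBP1 lay within 2% of their control level. The transferrin receptor TFRC did not pass the test (13250 against 13946 normalized counts). The exporter SLC40A1 had at most 14 reads in any library.

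These 10 genes were chosen by symbol as the core of cellular iron uptake, storage and export, and each was matched to 1 of the 65988 Ensembl identifiers in the count tables. They are FTH1, FTL, PCBP1, NCOA4, TFRC, STEAP3, SLC11A2, SLC40A1, ACO1 and IREB2. U87MG is an established human glioblastoma line, labelled wild type. The cells received vehicle (control, 3 libraries) or RSL3 at 2 µM (3 libraries) for 24 h, a time that the sample labels do not carry. RSL3 is a small molecule that inhibits GPX4, the enzyme that reduces lipid peroxides, and so triggers ferroptosis, a cell death that depends on iron and lipid peroxidation. The comparison asks which genes change their mRNA when ferroptosis is triggered in these cells. The labels number the libraries within each group but do not say whether they came from separate cultures, so the p-values measure the spread between these libraries, which may be technical. A single line and a single dose limit the comparison to these cells.

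Iron enters most cells bound to transferrin, through the transferrin receptor. In the endosome STEAP3 reduces the iron and SLC11A2 (DMT1) carries it into the cytosol, where PCBP1 hands it to ferritin, a shell of FTH1 and FTL subunits. NCOA4 binds FTH1 and carries ferritin to the lysosome, which frees the iron (ferritinophagy), and ferroportin (SLC40A1) carries iron out of the cell. Much of this is controlled after transcription. When iron is scarce, the iron regulatory proteins IRP1 (ACO1) and IRP2 (IREB2) bind a short hairpin, the iron-responsive element, in the mRNAs. Bound near the 5′ end, as in the ferritin mRNAs, they block translation, and bound in the 3′ UTR of TFRC they protect the mRNA from decay. Poly(A) RNA counts see the second kind of control and not the first.

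The hairpins are shown because they tell which of the 10 mRNAs carry this signal and at which end. The annotated UTRs of GRCh38 were searched on the gene's strand for a bulged C, 5 bases, the loop CAGTGN and 5 further bases, where the 5 bases on each side of the loop can pair with each other (G with U allowed). The lower stem was not searched and is shown as 5 bases on either side. Capitals mark the bulged C and the 6-base loop, and the letters are those of the DNA. FTH1, FTL and SLC40A1 each had 1 match in the 5′ UTR and TFRC had 4 in the 3′ UTR. SLC11A2 and IREB2 matched in the 3′ UTR only when 1 extra unpaired base was allowed in the stem after the loop, a wider pattern chosen after the first search.
FTH1, 5′ UTR, chr11:61967575-61967601, minus strand: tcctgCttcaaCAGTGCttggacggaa
FTL, 5′ UTR, chr19:48965336-48965362, plus strand: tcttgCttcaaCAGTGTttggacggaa
SLC40A1, 5′ UTR, chr2:189580662-189580688, minus strand: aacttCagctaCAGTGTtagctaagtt
TFRC 1, 3′ UTR, chr3:196050980-196051006, minus strand: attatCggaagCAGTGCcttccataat
TFRC 2, 3′ UTR, chr3:196050576-196050602, minus strand: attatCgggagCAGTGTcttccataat
TFRC 3, 3′ UTR, chr3:196050511-196050537, minus strand: tgtatCggagaCAGTGAtctccatatg
TFRC 4, 3′ UTR, chr3:196050464-196050490, minus strand: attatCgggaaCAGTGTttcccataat
SLC11A2, 3′ UTR, chr12:50988269-50988296, minus strand: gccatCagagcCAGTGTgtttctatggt
IREB2, 3′ UTR, chr15:78500970-78500997, plus strand: atttgCtttcaCAGTGAtgagtgagagg

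The bulged C was base 39 of the canonical FTH1 transcript and base 33 of the FTL transcript. The match was present in 9 of the 10 coding transcripts of FTH1 searched and in the single FTL transcript. The 4 TFRC matches were found in 13 of 16 transcripts searched with the bulged C between 944 and 1460 bases after the coding sequence. The SLC40A1 match lay in 1 of 5 transcripts, the SLC11A2 match in 6 of 24 and the IREB2 match in 1 of 7, so that only some isoforms of these genes carry it. Over all canonical transcripts, the strict pattern was found in 0.102% of 18647 5′ UTRs and in 0.63% of 19194 3′ UTRs, and TFRC was the 1 gene with 4 matches in a 3′ UTR. The wider pattern was found in 1.62% of 3′ UTRs, and in 2.1% of those within 20% of the length of the SLC11A2 UTR. A match describes the letters and is not a measured binding site.

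The 6 libraries held between 27813462 and 43306335 counted reads, and 16105 genes had enough reads to be tested. The mesenchymal and glial markers VIM, CD44 and FN1 were abundant, while NES had 120 to 202 reads, GFAP 82 to 154, SOX2 at most 2 and S100B at most 1. VIM, CD44 and FN1 had log2 fold changes of -0.29, -0.39 and -0.14 and were called lower. GFAP (0.40, edgeR adjusted p = 0.0726, groups apart) and NES (0.25, adjusted p = 0.203) lay on the other side of 0 and were not called. Of the 12 markers of leukocytes, red cells, hepatocytes and epithelium, none exceeded 31 reads in a library, and HBA1 was at 0 throughout. Their summed reads ran from 8 to 19 in control and 4 to 17 in RSL3 libraries for leukocytes, from 0 to 0 and 0 to 3 for red cells, from 26 to 33 and 9 to 18 for hepatocytes, and from 17 to 33 and 7 to 25 for epithelium. Mitochondrially encoded genes took 0.918% to 1.26% of the reads in control and 0.840% to 0.912% in RSL3 libraries. Their part in the results was not tested.

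Read counts per gene were scaled to a common library size (normalized counts) and tested with edgeR's quasi-likelihood test, and a gene was called when its p-value, adjusted over all 16105 genes, was under 0.05. Of the 10 members 9 could be tested, and 4 were called, 2 higher (FTH1 and FTL) and 2 lower (NCOA4 and STEAP3). Among all genes tested 25.6% were called, 12.9% higher and 12.7% lower, and among the 6358 genes with a mean normalized count of at least 1000, where the 9 members lie, 41.5% were called, 21.8% higher and 19.8% lower. The members' 4 of 9 is close to the share of genes of like abundance. The median log2 fold change of the 9 members was 0.0035, beside -0.0044 over all genes tested. The members shared no direction, with 5 of the 9 above 0 and 4 below, and they differed in how far they moved. In cells counted in bulk, fewer cells of a kind and less RNA per cell cannot be told apart.

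**Figure D1:**
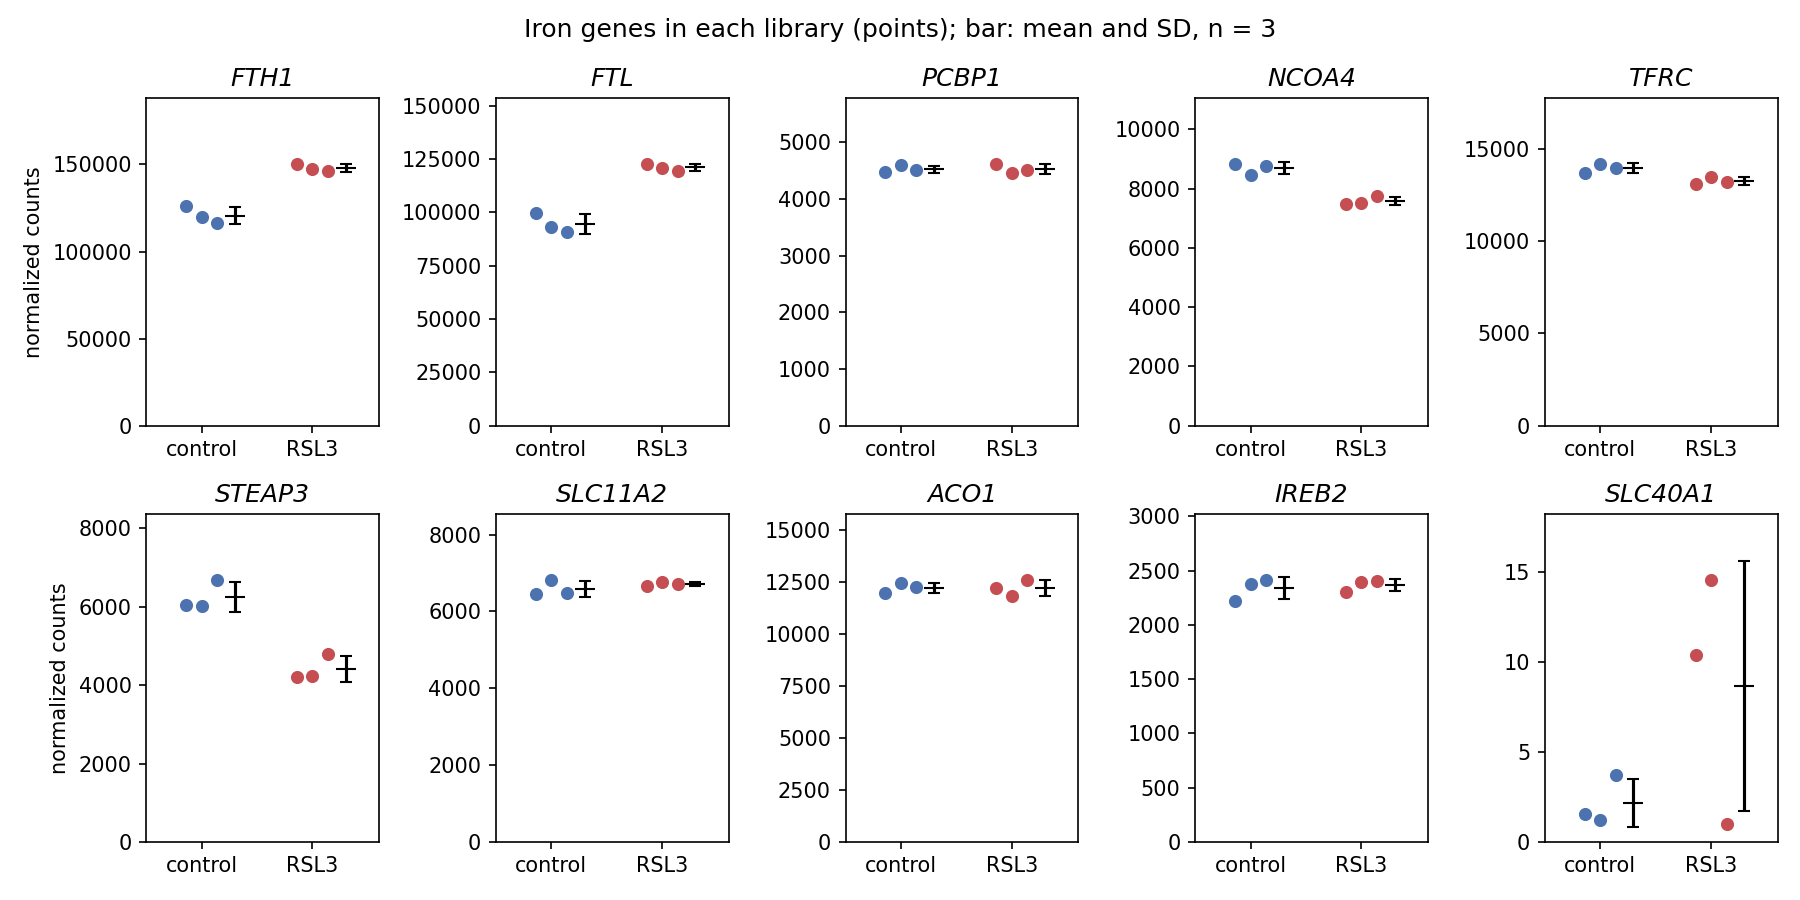
Normalized counts (y axis, from 0, its own scale in each panel) of the 10 iron genes in the 3 control (blue) and 3 RSL3 (red) libraries, with the mean and SD at the right of each group. FTH1 and FTL lie higher and NCOA4 and STEAP3 lower in all 3 RSL3 libraries, TFRC is separated by a narrow gap, and SLC40A1 stays under 15 normalized counts.

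FTH1 encodes the heavy ferritin subunit, which oxidizes iron as it enters the shell. The gene (ENSG00000167996) lies at chr11:61959718-61967634 on the minus strand of GRCh38. Its normalized counts were 125879, 119709 and 116202 in the control libraries and 150550, 147266 and 146512 in the RSL3 libraries. All 3 RSL3 libraries were above the highest control library, and they lay closer to each other than the controls did. The means were 120597 ± 4899 and 148110 ± 2147 (SD, n = 3), a log2 fold change of 0.30 (SE 0.03, 95% interval 0.24 to 0.35) with an adjusted p of 4.63e-08 (edgeR).

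FTL encodes the light subunit, which helps to form the iron core. It lies at chr19:48965309-48966879 on the plus strand (ENSG00000087086). The control libraries had 99644, 92936 and 90911 normalized counts, and the RSL3 libraries had 122907, 120838 and 119490. The groups did not overlap, and the order of the libraries within each group was that of FTH1. FTL was higher by 0.36 on the log2 scale (SE 0.03, 95% interval 0.30 to 0.42; edgeR, adjusted p = 8.88e-09), with means of 94497 ± 4571 and 121078 ± 1721 (SD, n = 3). Reads of both ferritin genes made up 0.662%, 0.621% and 0.612% of all counted reads in control libraries. In RSL3 libraries they made up 0.797%, 0.783% and 0.779%. The ferritin share was thus higher in each RSL3 library than in any control library.

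FTH1 and BEST1, a chloride channel gene on the opposite strand, overlap at their ends. In the annotation used here (GENCODE v44) 1267 of the 2004 exon bases of FTH1 (63.2%) are also exon bases of BEST1, and 880 of the 1203 bases of the canonical FTH1 transcript are shared. The reads were counted without strand, and the counting options listed in the methods name no mode for overlaps. The default mode leaves out a read from the shared stretch. Another mode could give such a read to either gene. The counts of FTH1 may therefore stand for part of its mRNA. BEST1 had 1222 ± 59.7 normalized counts in control and 1213 ± 20.9 in RSL3 libraries (SD, n = 3), a log2 fold change of -0.01 (edgeR, adjusted p = 0.912). FTL shares no exon base with another gene in this annotation, and its log2 fold change was 0.36. The part of the overlap in the FTH1 difference was not tested. FTH1 could not be compared free of the overlap from gene totals.

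Ferritin genes also have many processed copies in the genome, which resemble the parent mRNA closely and can take or remove its reads. The tables listed 41 ferritin pseudogenes (25 named FTH1P and 16 named FTLP), of which 18 were at 0 in all libraries and 15 passed the filter on low counts. All 15 had a log2 fold change above 0, with a median of 0.17, where 7890 of all 16105 genes tested were above 0. FTH1P20 was the 1 pseudogene called (0.24, edgeR adjusted p = 0.0237), and its groups overlapped. That call was lost without control replicate 1 (adjusted p = 0.145), control replicate 3 (0.134), RSL3 replicate 1 (0.0561) or RSL3 replicate 2 (0.112), and with DESeq2 (0.263). The most counted copy, FTH1P2, had 2393 ± 599 and 2555 ± 211 normalized counts (SD, n = 3; edgeR, adjusted p = 0.490). The next, FTH1P8, had 1706 ± 308 and 1906 ± 169 (adjusted p = 0.148).

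The reads of the 41 pseudogenes summed to 3.41%, 4.96% and 3.65% of those of FTH1 and FTL in the control libraries and to 3.59%, 3.75% and 3.31% in the RSL3 libraries. The groups overlapped, and control replicate 2 was the highest library for this share. It was also the highest library for 6 of the 15 pseudogenes tested, beside 16.2% of all genes tested. Reads that match several copies equally well cannot be assigned to one of them and may be missing from these sums, so the counts are uncertain. Their part in the ferritin difference was not tested. The other pseudogenes tested (FTH1P3, FTH1P4, FTH1P5, FTH1P7, FTH1P10, FTH1P11, FTH1P12, FTH1P15, FTH1P16, FTH1P23, FTLP2 and FTLP3) had log2 fold changes between 0.01 and 0.47 and were not called.

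PCBP1, the poly(C)-binding protein that delivers iron to ferritin, lies at chr2:70087477-70089203 on the plus strand (ENSG00000169564). Its normalized counts were 4466, 4591 and 4504 in control and 4625, 4452 and 4515 in RSL3 libraries. The groups overlapped fully. The log2 fold change was 0.00 with a 95% interval from -0.06 to 0.07 (edgeR, adjusted p = 0.958). The gene is a single exon, and 1264 of its 1727 bases (73.2%) are shared with the antisense gene PCBP1-AS1, whose log2 fold change was 0.03 (edgeR, adjusted p = 0.798). Reads of the pair cannot be told apart in the shared stretch.

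NCOA4, the receptor that delivers ferritin to autophagosomes, was significantly downregulated. It lies at chr10:46005088-46030623 on the minus strand (ENSG00000266412). The control libraries had 8845, 8464 and 8760 normalized counts and the RSL3 libraries 7473, 7523 and 7742. Every RSL3 library was below the lowest control library. The means were 8690 ± 200 and 7580 ± 143 (SD, n = 3), a log2 fold change of -0.20 (SE 0.03, 95% interval -0.26 to -0.13; edgeR, adjusted p = 5.17e-05). No exon base of NCOA4 is shared with another gene in this annotation.

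STEAP3 reduces ferric to ferrous iron in the endosome, so that it can be carried out of it, and lies at chr2:119223831-119265652 on the plus strand (ENSG00000115107). Its normalized counts were 6045, 6023 and 6689 in control and 4197, 4228 and 4783 in RSL3 libraries. The RSL3 libraries were all lower, and the third replicate was the highest in both groups. The means were 6253 ± 378 and 4402 ± 330 (SD, n = 3), and the log2 fold change was -0.51 (SE 0.05, 95% interval -0.60 to -0.41; edgeR, adjusted p = 5.04e-08). STEAP3 was the 1 member with a log2 change of at least 0.5 in size, a limit that 4.77% of all genes tested passed together with the adjusted p. That limit was missed without control replicate 3 (-0.45), RSL3 replicate 1 (-0.47) or RSL3 replicate 2 (-0.48). It was also missed with DESeq2 and 2 surrogate variables (-0.498). STEAP3 shares 500 of its 4562 exon bases with STEAP3-AS1, which had at most 16 reads in a library.

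TFRC, the transferrin receptor, lies at chr3:196012511-196082153 on the minus strand (ENSG00000072274). The control libraries had 13658, 14198 and 13981 normalized counts and the RSL3 libraries 13094, 13482 and 13174. The 3 RSL3 libraries lay below the 3 control libraries, as was so in either direction for 5 of the 9 members tested and for 38.6% of all genes tested. The gap between the closest libraries was small beside the spread within the groups, at means of 13946 ± 272 and 13250 ± 205 (SD, n = 3). The log2 fold change was -0.07 (SE 0.03, 95% interval -0.13 to -0.01), and its adjusted p of 0.0671 (edgeR) did not pass the threshold. It passed in 4 of 15 other settings, among them DESeq2 (adjusted p = 0.0459), scaling by total counts (0.0363) and leaving out control replicate 1 (0.0412), and over all 15 it reached 0.231.

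SLC11A2, also named DMT1, moves ferrous iron across the endosomal membrane and lies at chr12:50979401-51028566 on the minus strand (ENSG00000110911). It had 6456, 6823 and 6491 normalized counts in control and 6668, 6767 and 6713 in RSL3 libraries. The RSL3 libraries lay inside the range of the controls. The log2 fold change was 0.03 with a 95% interval from -0.04 to 0.09 (edgeR, adjusted p = 0.579).

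SLC40A1, or ferroportin, is the known exporter of ferrous iron and lies at chr2:189560590-189583758 on the minus strand (ENSG00000138449). It had 2, 1 and 4 reads in the control libraries and 9, 14 and 1 in the RSL3 libraries. A pair of RSL3 libraries was above the controls and the third was as low as the lowest control. The level was at most 0.425 CPM (reads scaled to the library total), and the limit that a count of 0 would allow, 3 reads, ran from 0.0693 to 0.108 CPM (counting error only). The gene did not pass the filter on low counts and was not tested, and no fold is given.

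The mRNAs of the iron regulatory proteins showed no difference between the groups beyond their spread. ACO1, cytosolic aconitase when it holds an iron-sulfur cluster and IRP1 when it does not, lies at chr9:32384603-32454769 on the plus strand (ENSG00000122729). It had 11990, 12468 and 12289 normalized counts in control and 12236, 11865 and 12622 in RSL3 libraries. The log2 fold change was -0.00 with a 95% interval from -0.06 to 0.06 (edgeR, adjusted p = 0.993). IREB2, which encodes IRP2, lies at chr15:78437431-78501453 on the plus strand (ENSG00000136381). It had 2221, 2373 and 2415 normalized counts in control and 2301, 2392 and 2407 in RSL3 libraries. The groups overlapped for both genes, and the IREB2 log2 fold change was 0.02 with a 95% interval from -0.07 to 0.11 (edgeR, adjusted p = 0.775). Neither gene shares an exon base with another gene in this annotation. These proteins are known to be controlled by iron-sulfur clusters and by degradation, which read counts do not measure.

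**Figure D2:**
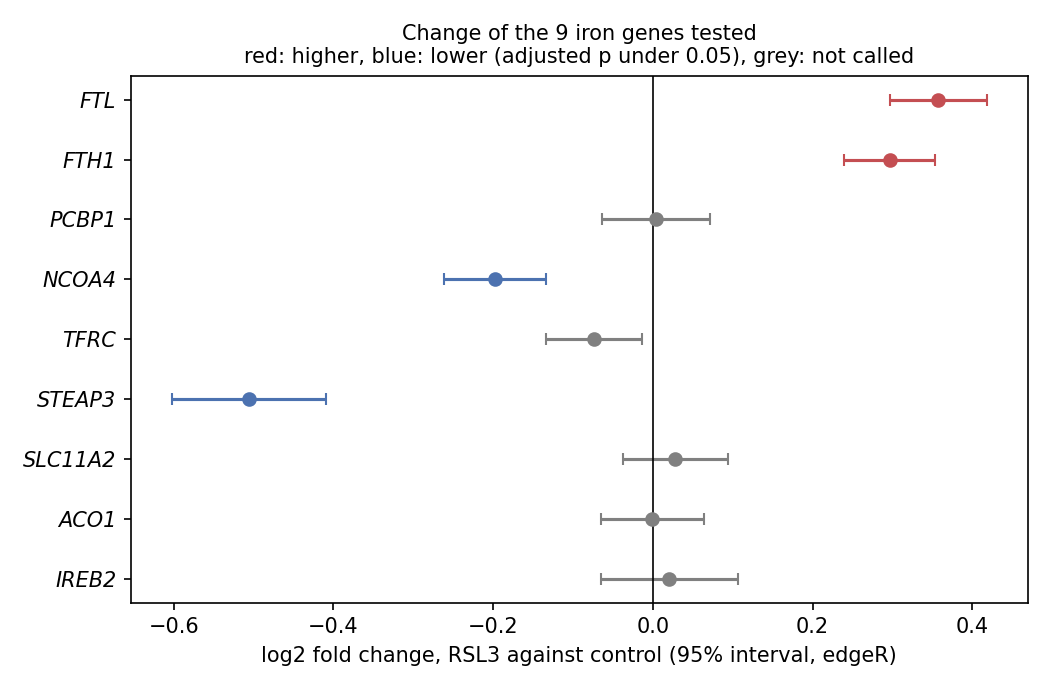
Log2 fold change of the 9 iron genes tested, RSL3 against control (x axis), with 95% intervals from edgeR; red, called higher; blue, called lower; grey, not called. FTL (0.36) and FTH1 (0.30) lie to the right, NCOA4 (-0.20) and STEAP3 (-0.51) to the left, and the interval of TFRC ends at -0.01.

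By the position of the hairpin, the members with a match at the 5′ end and a test (FTH1 and FTL) were both called higher. TFRC, with its 4 matches in the 3′ UTR, was not called, and neither was SLC11A2 or IREB2, whose matches needed the wider pattern. The members called lower, NCOA4 and STEAP3, had no match with either pattern. The numbers are too small for a test, and the 3 groups of genes are a description. A core of the antioxidant response element (TGACNNNGC, searched on both strands), to which NRF2 binds, was looked for between 250 bases before and 50 bases after the start of each gene in RefSeq (GRCh38.p14). The table held a promoter for 9 of the members (FTH1 was not in it), and PCBP1 and NCOA4 had a match, where 13.3% of 35116 promoters had one. Counted from the RefSeq start, the match began at position -161 in PCBP1 and at position 23 in NCOA4. The RefSeq start of NCOA4 lies inside the gene span given above, downstream of its outermost annotated start. No match in this window says only that the letters are not there.
PCBP1, chr2:70087227-70087526, plus strand, the core in capitals: tcactactGCAGTGTCAgaaggttt
NCOA4, chr10:46019950-46020249, minus strand, the core in capitals: ctgaaagcTGACAGTGCtctaactg

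Ratios of members within a library need no scaling between libraries and show whether a pair changed unequally. The ratio of FTH1 to FTL reads was 1.26, 1.29 and 1.28 in control and 1.22, 1.22 and 1.23 in RSL3 libraries. The ratio was lower in each RSL3 library than in any control library, by a log2 difference of -0.06 (SE 0.00859). The ratio of NCOA4 to FTH1 was 0.0703, 0.0707 and 0.0754 in control and 0.0496, 0.0511 and 0.0528 in RSL3 libraries, a log2 difference of -0.49 (SE 0.04). This ratio of the receptor's mRNA to the mRNA of its cargo subunit was lower in every RSL3 library than in any control library. Their proteins were not measured here. The ratio of TFRC to FTH1 was 0.109, 0.119 and 0.120 in control and 0.0870, 0.0916 and 0.0899 in RSL3 libraries, a log2 difference of -0.37 (SE 0.05). For each of these 3 ratios the groups did not overlap and the exact two-sided permutation test gave p = 0.1, the smallest that 3 against 3 libraries allow. The ratio of IREB2 to ACO1 was 0.185, 0.190 and 0.197 in control and 0.188, 0.202 and 0.191 in RSL3 libraries, with overlapping groups (log2 difference 0.02, SE 0.04, exact p = 0.6). With 4 ratios tested in a design of this size none could pass the threshold.

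**Figure D3:**
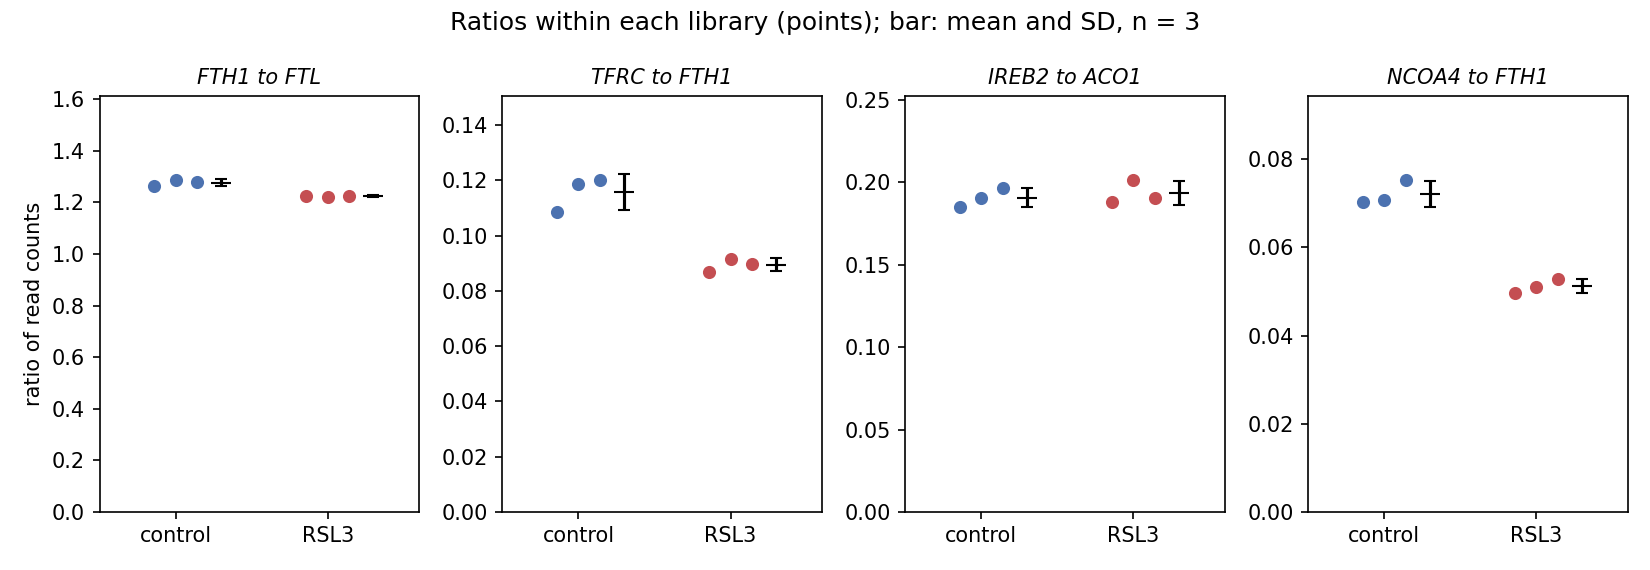
Ratio of read counts of a pair of iron genes (y axis, from 0, its own scale in each panel) in each of the 3 control (blue) and 3 RSL3 (red) libraries, with mean and SD. NCOA4 to FTH1 and TFRC to FTH1 are lower in all 3 RSL3 libraries, FTH1 to FTL lies at 1.26 to 1.29 in control and 1.22 to 1.23 in RSL3 libraries, and IREB2 to ACO1 overlaps.

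Levels of different genes were compared as RPKM, the CPM divided by the gene's exon length in kilobases. On this scale FTL (3186 ± 151 in control, SD, n = 3) and FTH1 (1767 ± 68.9) stood far above the rest. PCBP1 (76.9), NCOA4 (64.0), ACO1 (47.6), STEAP3 (40.3), TFRC (23.6), SLC11A2 (19.6) and IREB2 (6.35) followed, and SLC40A1 came last at 0.0151. No neighbours in this order overlapped over the control libraries, and the order was the same in RSL3 libraries. The order depended on the length used. With the canonical transcript, TFRC moved from place 7 to place 3 (81.7), FTH1 came close to FTL (2944 against 3186), and ACO1, SLC11A2 and STEAP3 (48.3, 46.8 and 43.1) overlapped with their neighbours. With only the exon bases that no other gene covers, FTH1 (4805) came above FTL (3186) and PCBP1 reached 287. Which ferritin subunit mRNA is the more abundant was therefore not settled by these counts.

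**Figure D4:**
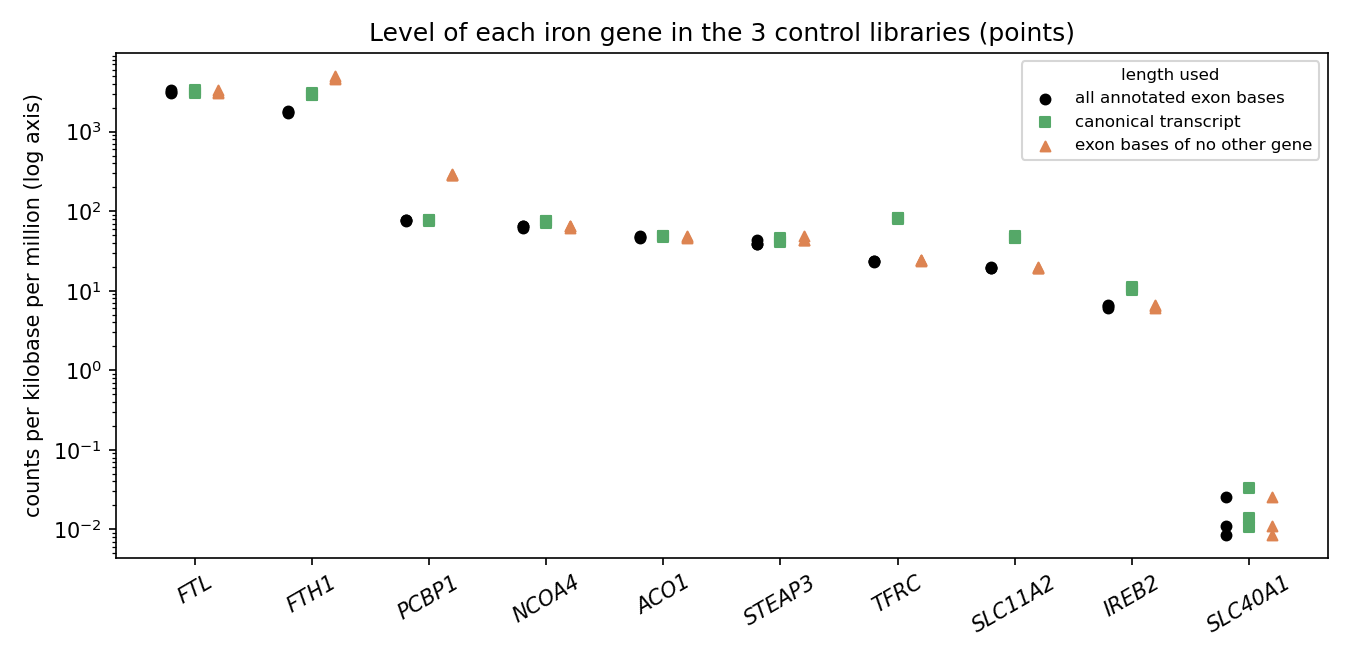
RPKM (y axis, log scale) of the 10 iron genes in the 3 control libraries, with 3 choices of gene length: all annotated exon bases (black), the canonical transcript (green) and exon bases of no other gene (orange). FTL and FTH1 stand highest under each choice and change places with each other, TFRC shifts from 23.6 to 81.7, and SLC40A1 is lowest.

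The other genes of iron handling were grouped by role into 8 lists with 87 genes, of which 72 were tested. Of these, 12 rose and 12 fell (edgeR, adjusted p under 0.05), and 30 had groups that did not overlap, where 38.6% of all genes tested had. Their median log2 fold change was -0.02. A share of 24 in 72 stood between that of all genes tested (25.6%) and that of genes with a mean normalized count of at least 1000 (41.5%).

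Among 12 other uptake genes tested, 3 rose and 3 fell, where 12.9% of all genes tested rose and 12.7% fell. Of genes with a mean normalized count of at least 1000, 21.8% rose and 19.8% fell. LCN2, a lipocalin that binds iron carried by siderophores, rose from 150 ± 15.3 to 250 ± 31.9 normalized counts (SD, n = 3), a log2 fold change of 0.73 (edgeR, adjusted p = 0.000216). SLC39A14 (ZIP14), an importer of iron that is not bound to transferrin, rose by 0.14 on the log2 scale (edgeR, adjusted p = 0.000269). The related importer SLC39A8 (ZIP8) fell by 0.24 on the log2 scale (edgeR, adjusted p = 0.00139). Named after their values were seen, MELTF was the other gene that rose (0.35), and HFE (-0.26) and CYBRD1 (-0.10) the others that fell.

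Of the genes that set the stability of the iron regulatory proteins, FBXL5 fell. FBXL5 is the iron-sensing subunit of the ubiquitin ligase that marks IRP2 for degradation, and had 2052 ± 42.1 normalized counts in control and 1718 ± 11.01 in RSL3 libraries (SD, n = 3), a log2 fold change of -0.26 (edgeR, adjusted p = 5.61e-05). The ligase subunit RBX1 fell by 0.20 on the log2 scale (edgeR, adjusted p = 0.00869), a call lost without RSL3 replicate 2 (adjusted p = 0.0842) and with DESeq2 and 2 surrogate variables (0.0761). The scaffold CUL1 rose by 0.12 (edgeR, adjusted p = 0.0119), a call lost without RSL3 replicate 1 (0.0875) or 2 (0.0563) and with DESeq2 and 2 surrogate variables (0.0562). SKP1, the other subunit tested, named after its value was seen, was not called (-0.04, edgeR adjusted p = 0.461). IREB2, the mRNA of its target, is described above and did not pass the test.

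Of the other mRNAs listed for an iron-responsive element, 4 of 5 were tested. EPAS1, which encodes HIF-2 alpha and matched the wider pattern in its 5′ UTR, fell by 0.10 on the log2 scale, the opposite direction to the ferritin genes (edgeR, adjusted p = 0.00828), a call lost without RSL3 replicate 1 (0.0568) or 2 (0.0559). CDC14A, a phosphatase with a match in the 3′ UTR of 1 of its 12 transcripts, had 183 ± 1.67 and 258 ± 27.4 normalized counts (SD, n = 3), a log2 fold change of 0.49 (edgeR, adjusted p = 0.00285). ALAS2, the erythroid enzyme of heme synthesis, had at most 3 reads. Genes with a match in the 5′ UTR, FTH1, FTL and EPAS1 among them, thus moved in both directions.

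The heme genes held the largest change of the 8 lists. HMOX1, the inducible heme oxygenase that frees iron from heme, rose by 0.95 on the log2 scale (edgeR, adjusted p = 3.72e-11). SLC48A1, which carries heme out of the lysosome, rose from 1551 ± 86.2 to 2339 ± 92.3 normalized counts (SD, n = 3), a log2 fold change of 0.59 (edgeR, adjusted p = 5.88e-09). BLVRA, a biliverdin reductase that acts after heme oxygenase, fell by 0.24 on the log2 scale (edgeR, adjusted p = 0.000144). Of the 10 heme genes tested 4 rose and 2 fell, where 25.6% of all genes tested were called in either direction. Among genes with a mean normalized count of at least 1000, 41.5% were called. The other heme genes called, named after their values were seen, were BLVRB (0.17), PGRMC1 (0.17) and FLVCR2 (-0.31).

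Of 6 other storage genes and chaperones tested, PCBP4 fell by 0.19 on the log2 scale (edgeR, adjusted p = 0.0124), a call lost without RSL3 replicate 1 (0.0696) and with DESeq2 and 1 (0.0505) or 2 (0.159) surrogate variables. PCBP2, the chaperone that works beside PCBP1, had a log2 fold change of -0.07 (edgeR, adjusted p = 0.110) and was called without RSL3 replicate 3 (0.0413). GLRX3, a glutaredoxin that handles iron-sulfur clusters, had 0.09 (edgeR, adjusted p = 0.119) and was called without control replicate 1 (0.0427) or RSL3 replicate 3 (0.0228). Of 5 genes of export and of the hepcidin axis tested, FURIN, a protease that cleaves the hepcidin precursor, fell by 0.13 on the log2 scale (edgeR, adjusted p = 0.0119), a call lost without control replicate 3 (0.0522) or RSL3 replicate 2 (0.1003) and with DESeq2 and 2 surrogate variables (0.119). NEO1, a receptor for hemojuvelin, rose by 0.15 (edgeR, adjusted p = 0.0299), a call lost in 7 of 15 other settings: without control replicate 1 (0.122) or RSL3 replicate 1 (0.113) or 2 (0.0787), without the filter (0.0572), and with DESeq2 alone (0.0576) or with 1 (0.0942) or 2 (0.241) surrogate variables. ERFE, the hormone erythroferrone, had a log2 fold change of 0.08 (edgeR, adjusted p = 0.570). The hepcidin gene HAMP had at most 2 reads and the ferroxidases HEPH and CP at most 5, so that SLC40A1 was not the only export gene near the limit of detection.

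Mitochondria build iron into heme and iron-sulfur clusters. Of the 22 genes tested in the list for mitochondrial iron and these clusters, 3 were called. Over all genes tested 25.6% were called, and 41.5% of those with a mean normalized count of at least 1000. NFU1, a carrier of iron-sulfur clusters, rose by 0.25 on the log2 scale (edgeR, adjusted p = 0.00178). FDXR, the reductase that feeds electrons to cluster assembly, fell by 0.16 (edgeR, adjusted p = 0.0105), a call lost without control replicate 3 (0.0530) and with DESeq2 and 2 surrogate variables (0.154). CISD2, a protein that holds such a cluster, rose by 0.17 (edgeR, adjusted p = 0.0109), a call lost without control replicate 3 (0.0582) or RSL3 replicate 2 (0.0917) and with DESeq2 and 2 surrogate variables (0.0735), and its groups overlapped. None of the 9 genes of cytosolic iron-sulfur assembly was called with edgeR. The smallest adjusted p among them belonged to NDOR1 (0.18, edgeR adjusted p = 0.0680), MMS19 (-0.11, 0.0735) and CIAO2A (-0.07, 0.282). NDOR1 was called in 1 of 15 other settings, without control replicate 3 (0.0411). MMS19 was called in 3 of 15, among them without control replicate 2 (0.0173) and with 1 surrogate variable in edgeR (0.0471).

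**Figure D5:**
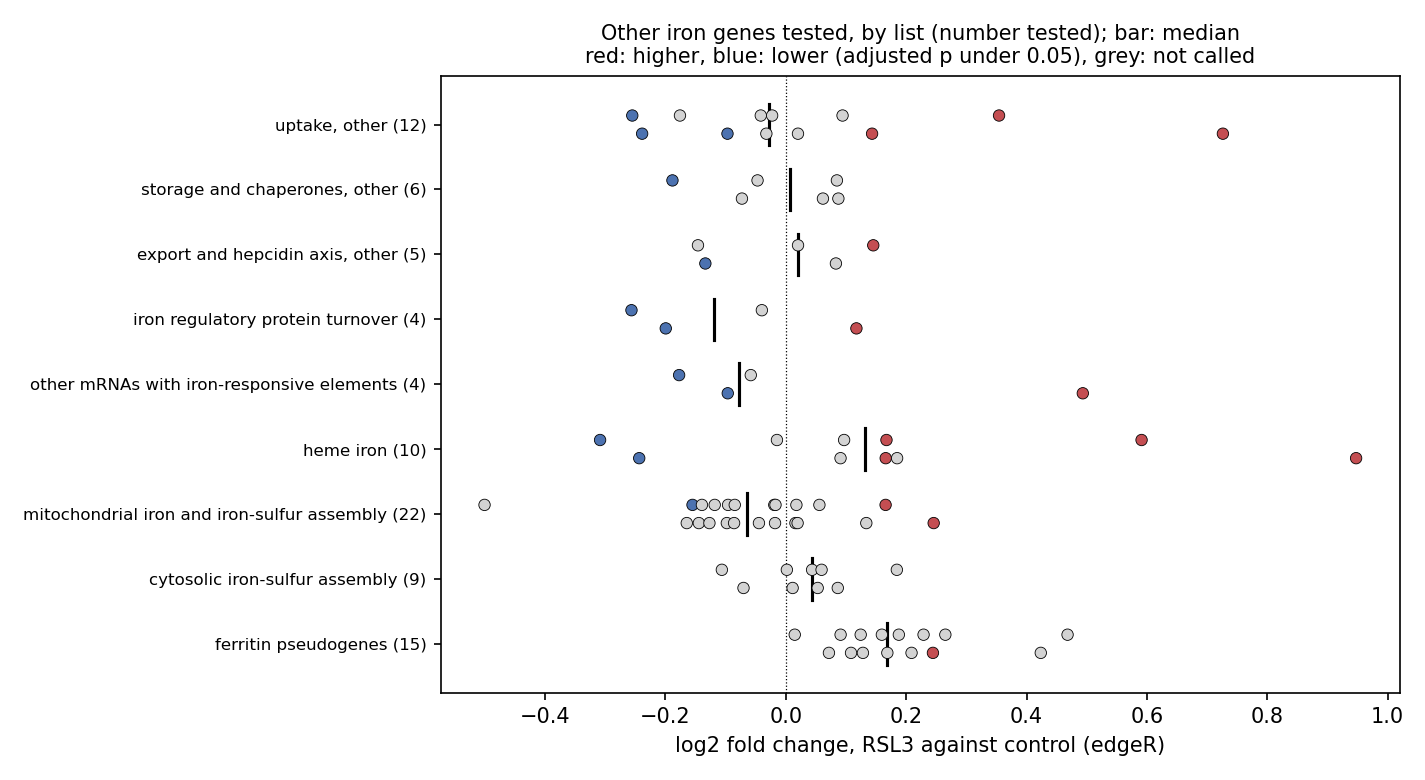
Log2 fold change (x axis, edgeR, RSL3 against control) of each tested gene in 8 lists of other iron genes and of the 15 ferritin pseudogenes, with the number tested in brackets; red, called higher; blue, called lower; grey, not called; bar, median of the list. HMOX1 (0.95), LCN2 (0.73) and SLC48A1 (0.59) lie farthest right, and all 15 pseudogenes lie above 0 with 1 called.

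For scale, GPX4, the target of RSL3, fell by 0.42 on the log2 scale (edgeR, adjusted p = 1.68e-09), and PAWR, which encodes Par-4, rose by 0.29 (edgeR, adjusted p = 0.000278). The differences between these genes and the members were not tested.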

How the data were processed

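Poly(A) RNA of 6 U87MG libraries (3 control, 3 RSL3 at 2 µM) was sequenced as paired ends on an Illumina NextSeq. Per the methods, Trimmomatic 0.36 and Fastp served for trimming, HISAT2 for alignment to GRCh38.p4 and SAMtools 1.3.1 for sorting. HTSeq 0.6.1p1 then counted exonic reads without regard to strand. The values deposited by the authors are raw counts per Ensembl gene, not normalized. The annotation release and the treatment of overlaps are not given in the sources used here. Default HTSeq settings leave out reads that match several places or the exons of several genes, which would lower FTH1 and PCBP1 and their pseudogenes. The submitters' processing notes also name FastQC 0.11.5 and StringTie 1.3.0. Groups and replicate numbers came from the sample titles.

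Symbols were matched to Ensembl identifiers. Genes passing filterByExpr (minimum count 10) were fitted with edgeR 4.0.16 (R 4.3.3): TMM scaling, glmQLFit, glmQLFTest, Benjamini-Hochberg adjustment over all 16105 genes tested, threshold 0.05. Normalized counts are counts divided by the effective library size and multiplied by the mean total of 34118585. Intervals are 95% intervals of the fitted log2 fold change. Library totals ran from 27813462 to 43306335, so counting error is small for the members except SLC40A1, and floors cover counting error only. Ratios were tested by exact two-sided permutation. The code was tested on simulated data. Alternatives were DESeq2 1.42.0, alone or with up to 2 surrogate variables (sva 3.50.0, as the authors used surrogate variables without stating how many), other scalings and filters, a replicate block, and leaving out each library.

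Named are all 10 members, in each other list the 3 genes of smallest p, ferritin pseudogenes that passed the filter, genes whose exons overlap a member, and HMOX1, PAWR and GPX4. Some genes of these lists are counted but not reported here by name. The members and lists were chosen with earlier results of these data known. Exon lengths, overlaps and UTRs came from GENCODE v44 on GRCh38, and promoters from RefSeq.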

Additional observations from a re-analysis of the deposited data

How the results depend on the processing

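FTH1, FTL, NCOA4 and STEAP3 were called with the same direction under all 15 alternatives of scaling, filter, tool, covariate, block and omitted library, with log2 fold changes of 0.27 to 0.33, 0.33 to 0.40, -0.21 to -0.18 and -0.57 to -0.45. The number of members called was 4 in 12 of 17 alternatives and 5 where TFRC was added, and 4 to 5 with 1 library left out. In the main fit it was 1 (STEAP3) when a log2 change of at least 0.5 was required as well. STEAP3 missed that limit in some of the alternatives, as given above. Of the other iron genes 24 were called, 16 to 25 with 1 library left out, and 13 with DESeq2 and 2 surrogate variables, where 2268 of all genes were called in place of 4123. The cause was not tested. The same-numbered libraries hardly deviated together (correlations of 0.0222, 0.0273 and 0.0745 across genes), and RSL3 replicate 1 correlated best with control replicate 2, so the numbers were not taken to pair the samples. With the replicate block 5 members were called (TFRC, adjusted p = 0.0180), 27 other iron genes, and 4633 of all genes. Genes near 0 that were never called changed sign. PCBP1 was -0.0048 with total counts and -0.011 to 0.017 with 1 library left out. ACO1 was 0.00068 with DESeq2 size factors, 0.00047 without the filter, 0.0018 with at least 10 counts in every library, 0.0023, 0.0025 and 0.0017 with DESeq2 and 0, 1 or 2 surrogate variables, and -0.020 to 0.022 with 1 library left out. With 1 library left out IREB2 ran from -0.0166 to 0.0496, BEST1 from -0.036 to 0.034, PCBP1-AS1 from -0.011 to 0.072, FTH1P5 from -0.13 to 0.25, FTH1P10 from -0.089 to 0.29 and FTH1P16 from -0.15 to 0.23, and the log2 ratio of IREB2 to ACO1 from -0.0098 to 0.042. The 3 other ratios kept their direction in each such omission and with 0.5 counts added. Read counts do not measure translation, protein or iron. Counts of FTH1, PCBP1 and the ferritin pseudogenes depend on how overlapping and repeated reads were handled, and depth limits SLC40A1.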
